A study of Homo sapiens with 4 samples.

Results

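Il23a-positive neutrophils are the host neutrophils of these tumours in which at least 1 unique molecular identifier (UMI, a tag that marks 1 captured RNA molecule) of Il23a was read. The cells were chosen by measured values. A barcode counted as a neutrophil when mouse genes took 90% or more of its gene UMIs, it held at least 1000 gene UMIs and 300 genes, at most 20% of its UMIs were mitochondrial, and S100a8 plus S100a9 made up at least 5% of its mouse UMIs. S100a8 and S100a9 encode the paired subunits of calprotectin, which fills the cytosol of neutrophils. Of 34722 deposited barcodes 17986 were neutrophils by this rule, and 1047 of these were Il23a-positive. Il23a itself therefore chose the cells, and its levels below are a description. The genes that came with the name of the group, Tnf, Gpr84, Il1a and Icam1, were proposed with these data in view, so their levels are not independent support for it.

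The tumours grew from MCF10DCIS.com, a human breast cell line that models ductal carcinoma in situ, in Rag1-/- mice, whose mature T and B cells are missing. The human cells were seeded on decellularized extracellular matrix (dECM) of mouse mammary tissue, cultured for 12 days and placed in fat pads, right and left within 1 mouse, and tumour with adjacent stroma was taken 4 weeks later. The young-matrix pool (Pool-1) had matrix from donors of 2 to 3 months, and the aged-matrix pool (Pool-2) matrix from donors of 18 months or more; recipient genotype, tumour line, culture and harvest time were the same in both. Dead cells were removed, cells were marked with hashing antibodies against human surface proteins, and each pool gave 1 single-cell 3′ gene expression library. The age of the recipients is not given, and the design text speaks of 3 sequenced samples without saying how they fall in the pools. With 1 library in each pool no test between pools or conditions was possible. Matrix age, pool and animals cannot be told apart, and because both matrices went into the same mouse the pools may share animals. Every interval below is a 95% interval for counting error and does not cover the spread between animals or between cells.

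Interleukin-23 is a secreted heterodimer of the p19 subunit, encoded by Il23a, and the p40 subunit, encoded by Il12b and shared with interleukin-12. It acts on lymphoid cells that carry its receptor and is best known for sustaining interleukin-17 production, which in turn draws neutrophils into tissue. Il23a is induced in myeloid cells by Toll-like receptor and NF-kB signals, the same signals that induce Tnf, Il1a and many chemokines. Inflammatory neutrophils are cells that have left the blood and express such cytokines, while genes of secondary granule proteins such as Ltf, Ngp and Camp belong to younger neutrophils close to the bone marrow.

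The young-matrix pool had 496 Il23a-positive cells among 9006 neutrophils (5.51%, exact binomial interval 5.05 to 5.999%), and the aged-matrix pool 551 among 8980 (6.14%, 5.65 to 6.65%). When every neutrophil was thinned to 2000 mouse UMIs, which left 5464 and 5180 cells and dropped 3542 and 3800 shallower ones, the shares were 5.41% and 6.31%. Among the deeper cells with a mouse share of at least 0.98 they were 9.08% and 9.04%, so the order of the pools depended on the gate. A share of cells with a UMI depends on depth, and a cell without an Il23a UMI may still express the gene. Il23a-positive cells were deeper than the other neutrophils, with a median of 3100 and 2716 mouse UMIs against 2213 and 2138. Each positive cell was therefore paired with 1 Il23a-negative neutrophil of its own pool within 10% of its mouse UMIs. All 1047 found a partner, and the paired negative cells had medians of 3098 and 2712 UMIs. At this equal depth positive cells had a median of 890 and 832 genes against 869 and 783, a mitochondrial share of 0.303% and 0.249% against 0.468% and 0.384%, and S100a8 plus S100a9 at 12.1% and 11.02% of mouse UMIs against 18.1% and 16.1%.

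Il23a reached 56.8 CPM (the usual scaling of UMI counts to a common total of mouse UMIs; Poisson interval 53.9 to 59.8) over all neutrophils of the young-matrix pool and 84.9 CPM (81.3 to 88.7) over those of the aged-matrix pool. Neutrophils held 1476 and 2057 Il23a UMIs, and most of these lay in few cells. In the young-matrix pool 252 positive cells had 1 Il23a UMI, 74 had 2, 89 had 3 or 4, 54 had 5 to 9 and 27 had 10 or more. In the aged-matrix pool the numbers were 252, 88, 92, 75 and 44. Cells with 10 or more Il23a UMIs were 5.4% and 8.0% of the positive cells and held 28.5% and 40.2% of the Il23a UMIs. The highest cell had 29 UMIs in the young-matrix pool and 67 in the aged-matrix pool, which was 1.96% and 3.26% of the pool's total.

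Outside the neutrophils, Il23a was at a lower CPM in the gates for other named cells, which sort mouse cells with under 5% S100a8 and S100a9 by the marker list with the largest share of their UMIs. Macrophage-gate cells had 9.10 and 12.1 CPM, with an Il23a UMI in 2.72% and 3.24% of cells at median depths of 8657 and 8355 UMIs. Dendritic-gate cells had 30.3 and 18.6 CPM (5.0% and 5.99% of cells). Fibroblast-gate cells, which should lack the gene, had 2.32 and 3.12 CPM and an Il23a UMI in 2.04% and 2.07% of cells at medians of 20924.5 and 20316 UMIs. The NK-cell gate had no Il23a UMI in 56 and 118 cells, which, taken as 3 counts of the total, allows a share of up to 5.36% and 2.54%. Mouse cells that reached no gate had 44.0 and 88.2 CPM, against 56.8 and 84.9 CPM in neutrophils, and an Il23a UMI in 11.7% and 11.9% of 1851 and 2235 cells, above the 5.51% and 6.14% of neutrophils. The human tumour cells cannot make mouse RNA, and their few mouse UMIs (median 220 and 240.5 a cell) can come from free RNA or from mouse cells caught in the same droplet. Of these mouse UMIs Il23a made up 30.5 and 59.0 CPM, and 1.27% and 1.59% of the human cells held an Il23a UMI; 0.288% and 0.335% held at least 2. Csf3r, the neutrophil receptor for granulocyte colony-stimulating factor, stood at 660 and 700 CPM among them. These sources were not told apart, and the part of free RNA in neutrophils with 1 Il23a UMI was not tested.

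**Figure D1:**
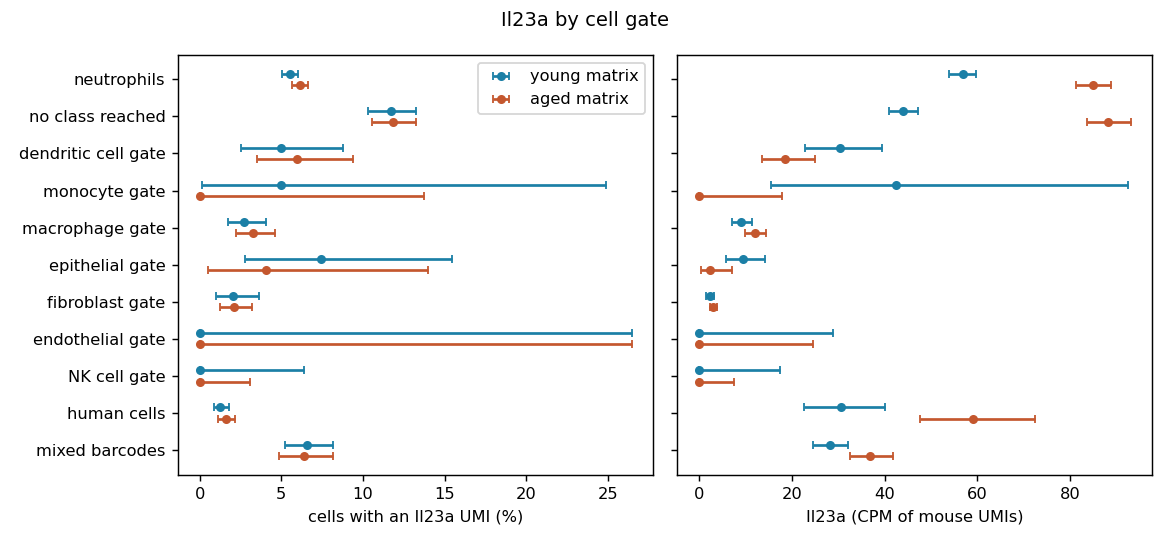
Share of cells with at least 1 Il23a UMI and Il23a level in CPM of mouse UMIs, by gate, in the young-matrix and aged-matrix pools; bars are 95% binomial and Poisson intervals for counting error. Neutrophils (5.51% and 6.14% of cells) and the mouse cells that reached no gate had more Il23a than the macrophage and fibroblast gates in CPM.

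Neutrophil markers were present throughout the positive cells. Of 14 neutrophil marker genes other than S100a8 and S100a9 none was at 0 in Il23a-positive cells, and 99.8% of them held 3 or more UMIs of the list in each pool. The list summed to 22586 CPM against 23189 CPM in the paired negative cells of the young-matrix pool and 23716 against 26307 CPM in the aged-matrix pool. Of the 14 genes 3, Mmp8, Ly6g and Retnlg, were at least 1.5-fold lower in positive cells of both pools, and none was higher. Over all measured genes 1.67% were lower in both. Csf3r was at 1016 against 999 CPM and 992 against 1025 CPM, and Cxcr2, the receptor for neutrophil-attracting CXC chemokines, at 578 against 597 CPM and 599 against 690 CPM. Of 14 dendritic cell markers 8 (Flt3, Zbtb46, Xcr1, Cd209a, Ccr7, Siglech, Ccl22 and Ccl17) were at 0 in the positive cells of both pools, and 6 and 8 of the 14 were at 0 in the paired negative cells. Of 6 eosinophil genes 4 (Epx, Prg2, Il5ra and Ear1) were at 0 in every set, and the list summed to 13.9 against 9.94 CPM and 19.0 against 5.81 CPM.

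The 11 macrophage genes other than Lyz2 summed to 1130 against 828 CPM in the young-matrix pool and 652 against 549 CPM in the aged-matrix pool. Most of the young-matrix positive sum was Apoe, and most Apoe UMIs there lay in 1 cell. The highest cell of each set had 5.23% against 3.24% and 1.55% against 1.46% of its mouse UMIs in these genes. The median positive cell held 1 such UMI, and 20.4% and 16.9% of positive cells held 3 or more, against 22.6% and 16.2% of paired negative cells. Csf1r, the receptor gene for the macrophage growth factor, was at 53.5 against 35.3 CPM and 53.3 against 34.3 CPM (1.52-fold and 1.55-fold), past 1.5-fold under CPM but not under the trimmed-mean scaling described below. The part of macrophage RNA in the comparison that follows was not tested. When cells with 3 or more macrophage or dendritic cell UMIs were left out, 391 and 452 positive cells remained. Tnf, Icam1, Gpr84 and Il1a were then past 1.5-fold in both pools. Doublet scores above 0.25 were found in 20.2% and 22.1% of positive cells against 16.3% and 12.5% of paired negative cells. Without these cells Tnf, Icam1, Gpr84 and Il1a were still past 1.5-fold in both pools.

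The S100 gate was a cut through a continuous range. Just inside it, at 5 to 6% S100a8 plus S100a9, lay 314 and 393 cells, of which 33 and 52 (10.5% and 13.2%) had Il23a. Just outside it, at 4 to 5%, lay 320 and 363 mouse cells, of which 35 and 46 (10.9% and 12.7%) had Il23a. The Il23a-positive cells of these ranges had Csf3r at 662 and 833 CPM inside the gate and 724 and 859 CPM outside it, and Tnf at 792 and 1803 CPM inside and 1023 and 1967 CPM outside. Retnlg, a gene of blood neutrophils, was at 996 and 318 CPM inside and 574 and 430 CPM outside. The macrophage markers took 0.0872% and 0.106% of their mouse UMIs inside and 0.296% and 0.0980% outside.

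Among 3765 genes measured in positive and paired negative cells, 217 (5.76%) were at least 1.5-fold higher in positive cells of both pools and 63 (1.67%) at least 1.5-fold lower in both. Each list count below is to be set beside these shares. A gene was measured with at least 100 UMIs over the 4 sets of cells and at least 20 CPM in the higher set of a pool. At 2-fold the numbers were 49 higher and 15 lower. The median log2 ratio over all measured genes was 0.07 in the young-matrix pool and 0.12 in the aged-matrix pool. S100a8 and S100a9 took a smaller share of the UMIs of positive cells, and with them left out of the totals 161 genes were higher and 106 lower. With a trimmed-mean scaling (TMM), whose medians were 0.00 and -0.02, the counts were 141 higher and 105 lower, so the surplus of higher genes (77.5% of those past the fold) shrank to 57.3%. Since 1 library stood for each pool, this is a description of the cells in these libraries.

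**Figure D2:**
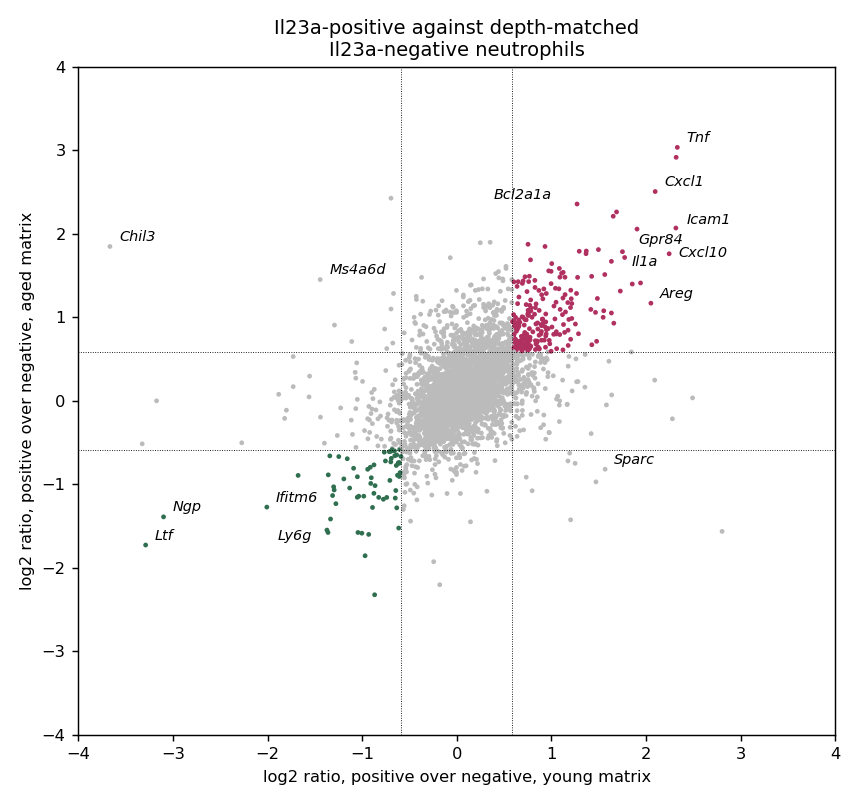
Log2 ratio of CPM in Il23a-positive over depth-matched Il23a-negative neutrophils, young-matrix pool on the x axis and aged-matrix pool on the y axis, for 3761 measured genes (4 lie outside the axes); dotted lines mark 1.5-fold. Tnf, Icam1, Gpr84, Il1a and Cxcl1 are in the upper right and Ltf, Ngp, Ly6g and Ifitm6 in the lower left, while Chil3, Ms4a6d and Sparc lie on opposite sides in the pools.

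Tnf, the gene of the cytokine tumour necrosis factor, was at 637 CPM in positive and 127 CPM in negative cells of the young-matrix pool and at 1093 and 134 CPM in the aged-matrix pool. It was 5.03-fold higher in the first (exact conditional binomial interval 4.40 to 5.78) and 8.18-fold higher in the second (7.18 to 9.36). At a thinned depth of 2000 UMIs a Tnf UMI was found in 39.2% of positive against 13.6% of negative cells and in 53.4% against 15.3%. Read the other way, the share of neutrophils with Il23a climbed with Tnf: it was 4.07% in young-matrix cells with no Tnf UMI, 7.78% with 1, 22.2% with 2 to 4 and 44.3% with 5 or more. In aged-matrix cells these shares were 3.69%, 9.13%, 27.8% and 47.4%. The share was highest in cells with 5 or more Tnf UMIs in both pools, and many positive cells had no Tnf UMI at that depth.

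Il1a, which encodes the membrane-associated alarmin interleukin-1 alpha, was at 774 against 230.0 CPM and at 1014 against 295 CPM (3.37-fold, 3.03 to 3.74, and 3.44-fold, 3.13 to 3.79). Areg, the gene of the EGF receptor ligand amphiregulin, was at 278 against 67.1 CPM and at 210 against 93.4 CPM (4.15-fold and 2.25-fold). Inhba, which encodes the activin A subunit, was at 108 against 53.7 CPM and at 133 against 42.8 CPM. These ligands were higher in positive cells of both pools, and the intervals of the Il1a ratio overlapped between the pools.

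In the list of 21 inflammatory cytokines and growth factors 15 were measured and 8 were higher in both pools, with none lower: Tnf, Il1a, Areg, Inhba, Ereg, Csf1, Csf3 and Il1rn. Of these, Tnf and Il1a were proposed with these data in view, so the count is in part built in. The median log2 ratio of the 15 was 0.61 and 0.89, and under TMM 7 remained past the fold, without Csf3. Csf1, which encodes the macrophage growth factor, was 1.91-fold and 1.84-fold higher, and Il1rn, which encodes the interleukin-1 receptor antagonist, 1.85-fold and 1.74-fold. Il1b, the gene of the major secreted neutrophil cytokine interleukin-1 beta, was abundant in every set (21191 against 16088 CPM, 22174 against 15589 CPM) and did not reach 1.5-fold. Osm, which encodes the gp130 cytokine oncostatin M, was at 402 against 434 CPM and 441 against 457 CPM.

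The partner subunit of interleukin-23 was not found in neutrophils. Il12b had 0 UMIs in 9006 and 8980 neutrophils, which by the same limit of 3 counts allows up to 0.0333% and 0.0334% of cells with a UMI. It was found elsewhere in the same libraries, with 6 UMIs in 5 macrophage-gate cells of the young-matrix pool and 20 UMIs in 3 of the aged-matrix pool, and 22 UMIs in 1 dendritic-gate cell of the young-matrix pool. Il23r, the gene of the receptor chain particular to interleukin-23, had 3 and 8 UMIs in all neutrophils. Il17a, Il17f and Il22, cytokine genes of the lymphoid cells that answer interleukin-23, had 0 UMIs in positive cells. Of the 18 genes of the interleukin-12 family list 13 were not measured, and of the 4 measured besides Il23a, Ebi3, Il17ra, Jak2 and Stat3, none was past the fold. Ebi3, the beta subunit of interleukin-27, was at 34.2 against 24.8 CPM and 29.5 against 21.6 CPM, and Il17ra, a subunit of the interleukin-17 receptor, at 178 against 150.03 CPM and 173 against 158 CPM. Il12a, which encodes the p35 partner of p40 in interleukin-12, had too few UMIs to be measured (31 against 20 and 37 against 31). Jak2, a kinase of the interleukin-23 receptor, was at 88.7 against 90.9 CPM and 115 against 79.7 CPM, and Stat3, its transcription factor, at 246 against 237 CPM and 257 against 258 CPM.

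Chemokine genes were the next group. Cxcl1, which encodes a neutrophil attractant that binds Cxcr2, was at 510.0 against 119 CPM and at 692 against 122 CPM (4.28-fold, 3.71 to 4.94, and 5.67-fold, 4.93 to 6.55). Ccl3 and Ccl4, which encode macrophage inflammatory proteins, were 2.13-fold and 2.79-fold, and 1.88-fold and 2.33-fold higher. Cxcl2, another Cxcr2 ligand and among the most abundant messages of these cells, was at 39425 against 23601 CPM and 41041 against 23626 CPM (1.67-fold and 1.74-fold). Ccrl2, an atypical receptor that presents chemerin, was 2.22-fold and 2.09-fold higher.

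In all, 12 of 17 genes of the chemokine list were measured, 6 were higher in both pools and none lower, with median log2 ratios of 0.82 and 0.96. The sixth was Cxcl10, which encodes an interferon-induced attractant of lymphocytes, at 37.7 against 7.95 CPM and 96.5 against 28.5 CPM. It leaned on single cells, since 1 cell held 61.8% of its UMIs in the young positive cells and 1 held 57.4% in the aged negative cells. Without the top cell of each set its ratios were 2.40-fold and 5.34-fold in place of 4.74-fold and 3.39-fold. It did not pass in both pools with at least 2 Il23a UMIs a cell (mean log2 ratio 0.44 against 2.00) or with an S100 gate of 10% (1.46). Ccl6, which was at 597 against 720 CPM and 690 against 809 CPM, and Cxcl3, at 1806 against 1356 CPM and 2182 against 1795 CPM, did not pass the fold.

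Receptor and adhesion genes gave fewer members. Icam1, which encodes the adhesion ligand of leukocyte integrins and is itself induced by NF-kB, was at 239.9 against 48.2 CPM in the young-matrix pool and 327 against 78.1 CPM in the aged-matrix pool (4.98-fold, 4.00 to 6.26, and 4.19-fold, 3.498 to 5.05). Gpr84, a receptor for medium-chain fatty acids, was at 121 against 32.3 CPM and 193 against 46.4 CPM (3.74-fold, 2.84 to 5.002, and 4.15-fold, 3.28 to 5.30). Scaled as CPM, Icam1 was the only one of 14 measured adhesion genes past the fold in both pools and Gpr84 the only one of 13 chemotactic and G protein-coupled receptors. Those counts lie near the 5.76% of all measured genes and show nothing particular to the lists. Both genes were also proposed with these data in view. The medians of those lists were -0.04 and 0.09, and 0.23 and 0.23. The integrin gene Itga4, at 22.8 against 33.8 CPM and 24.8 against 40.1 CPM, was past the fold as lower in both pools under TMM but not under CPM. Fpr1 and Fpr2, receptors for bacterial formyl peptides, were 1.40-fold and 1.30-fold, and 1.504-fold and 1.42-fold higher.

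Genes of the NF-kB pathway, which is switched on downstream of Toll-like receptors and tumour necrosis factor and restrained by inhibitors that it induces, were higher in 9 of 20 measured members and lower in none, with medians of 0.52 and 0.60. Under TMM 6 of them were past the fold, without Nfkbid, Tnip1 and Nfkb2. Nfkbia, which encodes the inhibitor that holds NF-kB in the cytosol, was at 9154 against 4879 CPM and 9141 against 4832 CPM, 1.88-fold and 1.89-fold. Tnfaip3, the ubiquitin-editing enzyme A20 that ends the signal, was 2.30-fold and 2.50-fold higher, and the inhibitor gene Nfkbie 2.27-fold and 1.96-fold. Traf1, an adaptor of tumour necrosis factor receptors, was 2.05-fold and 1.97-fold higher, and Tnfaip2 2.30-fold and 2.17-fold. The subunit gene Rela, at ratios of 1.19-fold and 1.22-fold, and the kinase gene Map3k8, at 153 against 126 CPM and 146 against 138 CPM, did not pass.

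Of 18 measured genes of Toll-like receptor, interleukin-1 receptor and inflammasome signalling only Nlrp3 passed, a share near the 5.76% of all measured genes. Nlrp3, the sensor of the interleukin-1-processing inflammasome, was at 1728 against 922 CPM and 2242 against 1138 CPM (1.87-fold and 1.97-fold). The list medians of 0.25 and 0.31 were above the 0.07 and 0.12 of all genes. In the prostaglandin, arginine and itaconate list 1 of 7 passed. This was Ptgs2, which encodes the inducible cyclooxygenase, at 1273 against 663 CPM and 1433 against 698 CPM, while the arginase gene Arg2 (735 against 628 CPM, 721 against 726 CPM) and Nos2, which encodes inducible nitric oxide synthase (114 against 118 CPM, 100.2 against 98.2 CPM) did not.

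Survival genes of the Bcl2a1 cluster were among the highest ratios. Bcl2a1b was at 377 against 134 CPM and 572 against 163 CPM (2.82-fold and 3.504-fold), Bcl2a1d at 41.6 against 12.9 CPM and 98.6 against 20.6 CPM, and Bcl2a1a at 112 against 46.2 CPM and 221 against 43.3 CPM. The 3 genes are near-identical copies of an NF-kB-induced anti-apoptotic gene, so the split of reads between them is uncertain. With Cflar, the caspase-8 inhibitor c-FLIP (1.69-fold in both pools), they were the 4 of 16 measured survival genes past the fold, and none was lower. Because the 3 copies may share reads, the 4 are not separate observations. Mcl1, which encodes the main survival factor of neutrophils, was at 4926 against 4586 CPM and 4857 against 4657 CPM.

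Of the immediate early and heat shock list 3 of 22 passed. Dusp2, a phosphatase that turns off MAP kinases, was at 173 against 55.1 CPM and 249 against 53.8 CPM (3.15-fold and 4.62-fold), and the transcription factor genes Egr3 and Nr4a1 were 2.32-fold and 2.24-fold, and 1.61-fold and 2.01-fold higher. The 12 measured interferon genes gave 2 higher, Cxcl10 and Irf1 (2.13-fold in each pool), and 1 lower, the antiviral membrane gene Ifitm3 (863 against 1584 CPM, 867 against 1477 CPM), with medians of -0.10 and -0.14. In the checkpoint and suppressive list 3 of 13 were higher: Havcr2, which encodes the receptor TIM-3 (2.58-fold and 3.39-fold), Clec5a, an activating myeloid lectin receptor (2.11-fold and 2.53-fold), and Olr1, the oxidized lipoprotein receptor LOX-1 (2.78-fold and 1.64-fold; not past the fold under TMM). Cd274, which encodes PD-L1, was at 340.0 against 248 CPM and 327 against 252 CPM and did not pass.

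None of 15 measured stress response genes and none of 16 myeloid transcription regulators passed, and the regulators' medians of 0.05 and 0.09 turned to -0.01 and -0.04 under TMM. Of 23 hypoxia and glycolysis genes Ndrg1 and Mif were 1.52-fold to 1.68-fold higher, and neither passed under TMM. In the phagocyte oxidase list the mitochondrial superoxide dismutase gene Sod2 was higher (609 against 294 CPM, 693 against 391 CPM) and the oxidase regulator gene Rac2 lower (263 against 423 CPM, 288 against 433 CPM), out of 14 measured. In the hypoxia and oxidase lists the shares of higher genes lie near the 5.76% of all measured genes and show nothing particular to them. Rac2 was the only lower gene of the oxidase list, also under TMM, where 1.67% of all measured genes were lower under CPM. A single gene is too few to describe the list.

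Marker lists of other cells moved unevenly with this comparison, and their part in it was not tested. The fibroblast markers summed to 541 against 228 CPM in the young-matrix pool and 405 against 499 CPM in the aged-matrix pool, with medians of 1.57 and -0.29 over 5 measured genes. Dendritic cell markers summed to 306 against 736 CPM and 374 against 391 CPM, and the T and B cell markers to 14.4 against 19.4 CPM and 15.3 against 19.0 CPM.

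**Figure D3:**
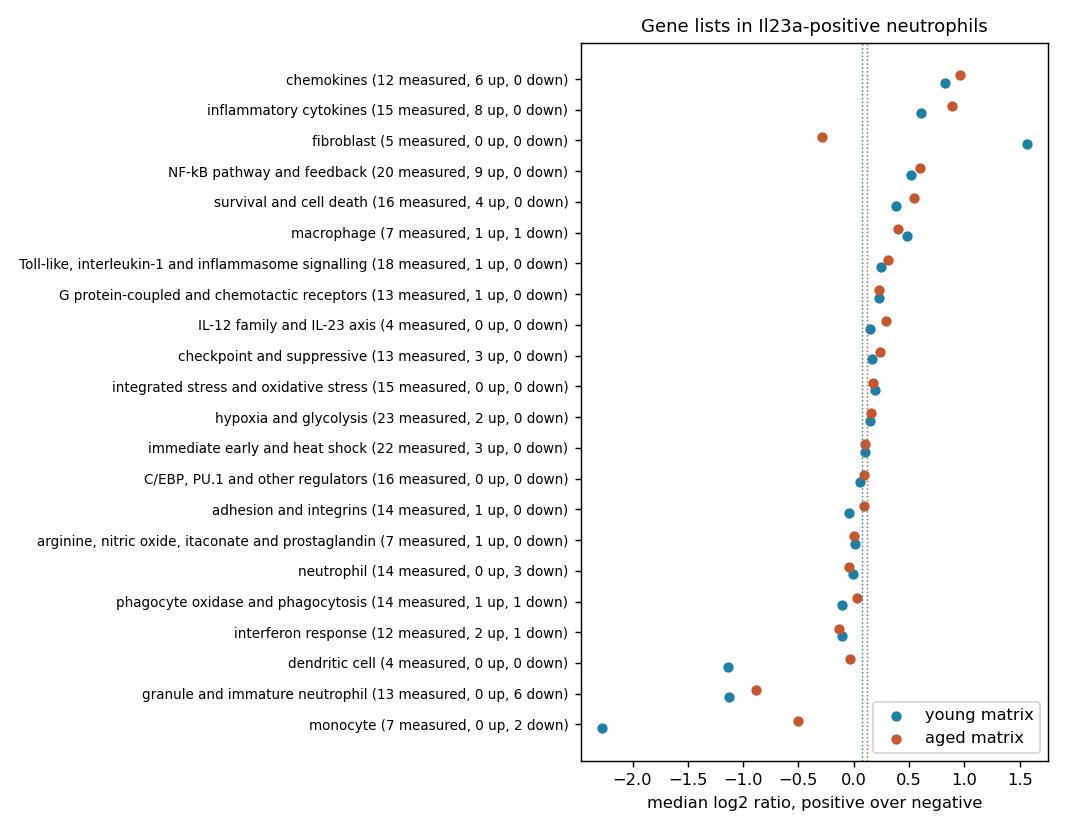
Median log2 ratio of Il23a-positive over depth-matched negative neutrophils for each gene list with at least 4 measured members, in the young-matrix and aged-matrix pools; dotted lines are the medians over all measured genes, 0.07 and 0.12. The cytokine and chemokine lists lie farthest to the right among the functional lists in both pools and the granule list farthest to the left, while the fibroblast, dendritic and monocyte marker lists lie apart between the pools.

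Granule and early neutrophil genes were the group below. Of 13 measured members 6 were lower in both pools and none higher, under CPM and under TMM, and the medians were -1.13 and -0.89. Ly6g, the surface marker of mouse neutrophils, was at 51.0 against 131 CPM and 58.5 against 175 CPM, 2.57-fold (2.04 to 3.26) and 2.99-fold (2.40 to 3.74) lower. Mmp8, the collagenase of secondary granules, was 1.55-fold and 2.43-fold lower, Anxa1, the pro-resolving annexin, was at 337 against 739 CPM and 359 against 740.0 CPM, and Lyz2, the lysozyme gene, was 2.56-fold and 1.85-fold lower. The granule protein genes Ltf (13.9 against 136 CPM, 58.0 against 192 CPM) and Ngp (67.4 against 578 CPM, 209 against 549 CPM) completed the 6.

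Ltf and Ngp rested on few cells. Single cells held 32.1% and 78.4% of the Ltf UMIs in the positive and negative sets of the young-matrix pool and 84.5% and 45.3% in the aged-matrix pool. For Ngp these shares were 50.0%, 69.4%, 89.7% and 43.4%. At 2000 UMIs a cell, an Ltf UMI was in 2.57% of positive against 1.20% of negative cells and in 2.08% against 1.30%, an order opposite to its CPM, so no order is read from it. The share of cells with Ngp was 2.25% against 3.59% and 1.48% against 4.52%. Camp, which encodes the antimicrobial peptide cathelicidin, had 8 against 712 UMIs in the young-matrix pool and 427 against 532 in the aged-matrix pool, where 1 positive cell held 98.1%.

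Other genes of the lower group were spread over more cells. Retnlg, a resistin-like gene of blood neutrophils, was at 2628 against 5421 CPM and 2062 against 6155 CPM, 2.06-fold and 2.98-fold lower. At 2000 UMIs it was in 50.5% against 71.9% and 43.0% against 66.0% of cells. Ifitm6, an interferon-induced membrane gene of young neutrophils, was at 198 against 797 CPM and 344 against 831 CPM. The aldehyde dehydrogenase gene Aldh2 (34.2 against 84.9 CPM, 38.0 against 83.4 CPM), the adhesion gene Ceacam10 (15.4 against 37.3 CPM, 12.1 against 28.5 CPM), the attractin gene Atrn (9.91 against 24.3 CPM, 11.1 against 23.2 CPM) and the diacylglycerol kinase gene Dgkg (21.8 against 45.2 CPM, 16.3 against 36.4 CPM) were also among the 10 lowest. So were the monocyte-linked genes Ly6c1 (11.9 against 30.8 CPM, 6.85 against 20.1 CPM) and Ccr2 (15.4 against 38.7 CPM, 9.49 against 25.3 CPM), where 1 cell held 58.3% and 58.1% of the UMIs of the young positive cells. The 8 monocyte markers summed to 307 against 669 CPM and 332 against 466 CPM, and their part in these 2 genes was not tested. With an S100 gate of 10% Ccr2 turned to a mean log2 ratio of 0.33. With cells thinned to 2000 UMIs and set against all negative cells Ltf, Ceacam10 and Aldh2 were at mean log2 ratios of -0.83, -0.38 and -0.66 and did not pass in both pools.

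The rest of the 15 highest ratios were less familiar genes of low level. Fam71f2 was at 23.8 against 6.95 CPM and 24.3 against 7.39 CPM, Icosl, the gene of the ligand of the T cell costimulator ICOS, at 17.3 against 6.46 CPM and 31.1 against 11.1 CPM, and Acp5, the tartrate-resistant acid phosphatase gene, at 27.8 against 8.94 CPM and 18.5 against 5.81 CPM. Serpinb2, which encodes plasminogen activator inhibitor 2, was at 41.1 against 13.9 CPM and 40.6 against 14.3 CPM, with 45.8% of its young positive UMIs in 1 cell. The predicted genes Gm14636 (89.7 against 23.3 CPM, 65.9 against 24.8 CPM) and Gm43936 also belonged to this group. Gm43936 had 0 UMIs in the young negative cells, so it was at least 4.99-fold higher there against a floor of 3 UMIs, and 43.8 against 5.81 CPM in the aged-matrix pool. With an S100 gate of 10% Serpinb2 turned to a mean log2 ratio of -0.79. Fam71f2, Icosl, Acp5 and Gm43936 did not meet both the measurement minimum and the fold in several alternatives. These were at least 2 Il23a UMIs, the 10% S100 gate, a mouse share of at least 0.98, and leaving out doublet-scored or macrophage-marked cells. Their mean log2 ratios there stayed positive. Acp5 and Gm43936 also failed without each set's top cell.

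Within the positive cells the marker levels climbed with the number of Il23a UMIs, though not at each step. In the young-matrix pool Tnf was at 127 CPM in the paired cells with no Il23a UMI, then at 343, 775, 692, 857 and 1731 CPM in cells with 1, 2, 3 to 4, 5 to 9 and 10 or more. In the aged-matrix pool it was at 134, 728, 935, 920, 1168 and 3448 CPM. Cells with 1 Il23a UMI had more Tnf than the paired cells with none. Those paired cells were matched to all positive cells, with medians of 3098 and 2712 mouse UMIs against 2913 and 2501.5 at 1 UMI. As Il23a set the classes and Tnf was proposed with these data in view, this is a description. Cxcl1 ran from 119 CPM through 217, 493, 509 and 672 to 2166 CPM and from 122 CPM through 381, 613, 573 and 731 to 2578 CPM. Il1a ran from 230.0 CPM to 647 at 1 UMI and 1345 CPM at 10 or more, and from 295 CPM to 762 and 2255 CPM. Icam1 ran from 48.2 to 132 and 690 CPM and from 78.1 to 223 and 609 CPM.

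Not every gene followed this order. Gpr84 was at 96.8, 169, 172, 70.2 and 152 CPM over the young-matrix classes and at 165, 168, 165, 225 and 379 CPM over the aged-matrix ones. Retnlg was below the 5421 and 6155 CPM of the paired cells in every class (1381 to 3097 CPM and 1192 to 2749 CPM), with no order among them. Ly6g was at 131 CPM in young-matrix cells with 10 or more Il23a UMIs, the level of the paired cells, and at 17.4 to 73.9 CPM in the other young-matrix classes. Cd274 stayed between 283 and 362 CPM in the young-matrix and 301 and 362 CPM in the aged-matrix classes. Cells with more Il23a UMIs were also deeper in the young-matrix pool (medians from 2716 to 4464 UMIs) and in part in the aged-matrix pool (2501.5 to 3328 UMIs), and the part of depth in these classes was not tested.

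**Figure D4:**
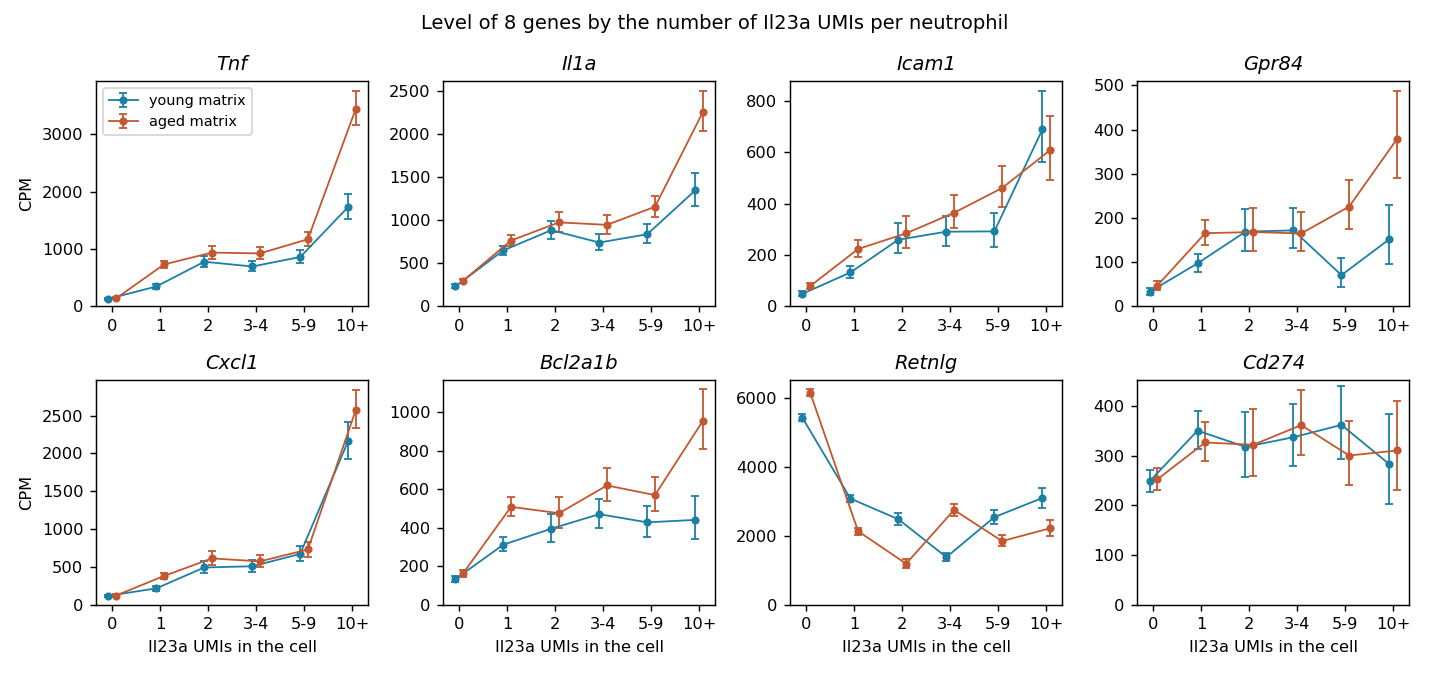
CPM of 8 genes in neutrophils with 0 (matched in depth to all positive cells), 1, 2, 3 to 4, 5 to 9 and 10 or more Il23a UMIs in each pool, with 95% Poisson intervals. Tnf and Cxcl1 are highest at 10 or more Il23a UMIs, Retnlg is lower in each positive class than at 0, and Cd274 is nearly level over the positive classes.

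Between the pools, positive cells were compared directly, and the paired negative cells of the same pools are given beside them. Among 2977 genes measured in positive cells 51 (1.71%) were at least 1.5-fold higher in the aged-matrix pool and 45 (1.51%) lower. In the paired negative cells 37 of 2801 (1.32%) were higher and 76 (2.71%) lower. Of the 51 higher genes 1 was both measured and past the fold in the negative cells, and of the 45 lower genes 7 were. Genes with too few UMIs in the negative cells to be measured there were left out of these counts. Bcl2a1d and Cxcl10, for example, were left out, although their ratios in the negative cells, given below, were past 1.5-fold. The counts therefore do not show how many of the differences between pools were particular to positive cells. The median log2 ratio was 0.02 in positive and -0.01 in negative cells.

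Tnf was 1.71-fold higher in aged-matrix positive cells (637 and 1093 CPM, 1.60 to 1.84) and 1.05-fold in the negative cells (127 and 134 CPM). Bcl2a1a was 1.99-fold higher (112 and 221 CPM, 1.69 to 2.35) against 0.937-fold in the negative cells (46.2 and 43.3 CPM), and Bcl2a1d 2.37-fold (1.82 to 3.10) against 1.59-fold. Ccl4 was 1.55-fold higher (1844 and 2862 CPM, 1.49 to 1.62) against 1.25-fold. Gpr84 was 1.60-fold higher (121 and 193 CPM, 1.35 to 1.88) against 1.44-fold, and Bcl2a1b 1.52-fold (1.38 to 1.67) against 1.22-fold. Il23a, the gene of the rule, was at 731 and 1085 CPM in positive cells. At 2000 UMIs a cell Gpr84 was at a log2 ratio of 0.51, within 1.5-fold, while Tnf stayed past it. Whether the pools' ratios differed between positive and negative cells was not tested.

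Other genes that were higher in positive than in negative cells lay within 1.5-fold between the positive cells of the pools. Il1a was 1.31-fold higher (1.23 to 1.40) in positive cells and 1.28-fold in negative cells, Icam1 1.37-fold (1.21 to 1.54) and 1.62-fold, and Cxcl1 1.36-fold (1.25 to 1.47) and 1.02-fold. Nfkbia (9154 and 9141 CPM) and Cxcl2 (39425 and 41041 CPM) were at nearly the same level in both pools. Areg was at 278 and 210 CPM, the reverse order.

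**Figure D5:**
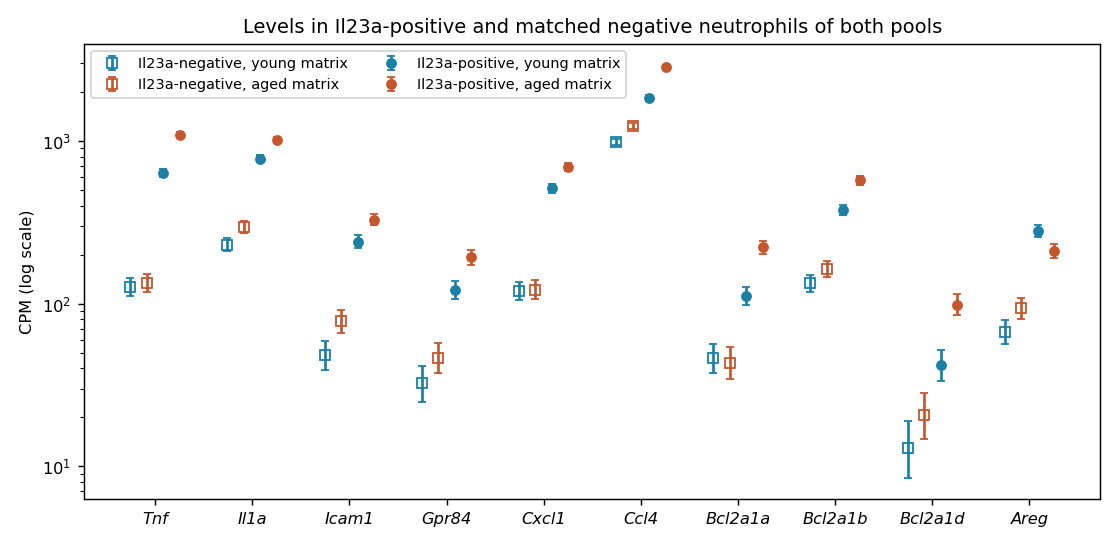
CPM on a log scale of Tnf, Il1a, Icam1, Gpr84, Cxcl1, Ccl4, the Bcl2a1 genes and Areg in Il23a-positive and depth-matched Il23a-negative neutrophils of the young-matrix and aged-matrix pools, with 95% Poisson intervals. The distance between positive and negative cells is larger than that between pools for each gene drawn.

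Several of the genes farthest apart between the pools depended on single cells. Of the 8 highest, Camp (3.96 and 225 CPM), Ltf and Ngp were higher in the aged-matrix pool, where 1 cell held 98.1%, 84.5% and 89.7% of their UMIs. Without the top cell of each pool their log2 ratios were 0.28, -0.07 and -0.64. Hspa1a, the gene of the inducible chaperone Hsp70, was at 72.4 and 263 CPM (3.64-fold, against 1.19-fold in negative cells). Its log2 ratio was 1.53 without the top cell of each pool. Cxcl10 was at 37.7 and 96.5 CPM (2.56-fold against 3.59-fold in negative cells). Ms4a6d, a myeloid membrane gene, was at 20.8 and 49.0 CPM, and Trmt112, a methyltransferase cofactor gene, at 21.3 and 43.2 CPM (2.03-fold against 0.590-fold in negative cells).

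Of the 8 lowest, the fatty acid binding protein gene Fabp4 (118 and 1.58 CPM, with 96.2% of the young UMIs in 1 cell), C1qa (50.1 and 10.5 CPM, 89.1%) and Apoe (736 and 341 CPM, 59.4%) are macrophage or fat-linked genes carried by 1 young-matrix cell each. Lgals1, a galectin gene (119 and 57.5 CPM), and Crip1, a LIM-domain gene (53.0 and 24.8 CPM), had 41.7% and 39.3% in 1 cell. Ccnf, which encodes cyclin F, was 2.34-fold lower (40.6 and 17.4 CPM), Tent5a, a poly(A) polymerase gene, 2.00-fold lower (33.7 and 16.9 CPM), and S100a10, an annexin A2 partner gene, 2.17-fold lower (58.5 and 26.9 CPM), where the negative cells had 84.5 and 41.2 CPM. Without cells over the doublet score S100a10 and Crip1 turned to log2 ratios of 0.12 and 0.21. The macrophage markers other than Lyz2 summed to 1130 CPM in young-matrix and 652 CPM in aged-matrix positive cells. Apoe made up most of the young-matrix sum, and 1 cell held 59.4% of its UMIs, so no order of the pools is read from the sums.

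Hashing tags, meant for human cells, gave little to separate the neutrophils further. In 67.1% and 60.3% of neutrophils the highest tag stood clear of the rest, and 99.5% and 99.4% of these cells had the same tag, H-HTO-4 in the young-matrix and H-HTO-2 in the aged-matrix pool. No label links a tag with an animal, so no value within an animal could be given. The pools shared 190 barcode sequences, and none of these was Il23a-positive in both.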

How the data were processed

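The authors deposited 1 filtered matrix of raw UMI counts per pool, for which the submitters' processing notes name Cell Ranger 6.0.0 and the builds GRCh38 (human) and mm10 (mouse). The deposited counts were used unscaled, with 32285 mouse genes. Each set's UMIs were added up gene by gene and given as CPM of mouse gene UMIs. Pairing was deepest cell first, without replacement. Positive and negative cells were compared within each pool. A ratio carries an exact conditional binomial interval, a share an exact binomial (Clopper-Pearson) interval and a CPM a Poisson interval. A set at 0 was placed at a floor of 3 UMIs. Scrublet in scanpy 1.11.5 (expected rate 0.1) gave doublet scores, used in an alternative. The steps were tested on simulated data. Software was Python 3.11.15, numpy 2.4.6, scipy 1.17.1 and pandas 2.3.3.

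The members and the 30 gene lists (437 genes) were chosen with earlier results of these data known. Named genes were the 4 markers, the 15 highest and 10 lowest among genes past 1.5-fold in both pools, up to 3 at each end of a list, the interleukin-12 family, and the 8 highest and 8 lowest between pools. Other genes named (among them Il1b, Inhba, Csf1, Csf3, Ereg, Il1rn, Ccl4, Cxcl2, Cxcl3, Ccrl2, Nfkbia, Rela, Traf1, Cflar, Mcl1, Cd274, Csf3r and Anxa1) were chosen after their values were seen. No mouse sequence or coordinate was used here.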

Additional observations from a re-analysis of the deposited data

Results flagged for a closer look

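Among genes named here 4 were past 1.5-fold in opposite directions in the pools when Il23a-positive neutrophils were set against their paired negative cells, and 21 of all 3765 measured genes were. The difference between pools was not tested for any of them. Ccl5, a chemokine gene of lymphocytes and macrophages, had a log2 ratio of -6.05 in the young-matrix and 2.40 in the aged-matrix pool, a gap of 8.45. It had 1 against 66 and 37 against 7 UMIs. A single cell held 98.5% of the 66, and 1 cell held 54.1% of the 37. Without each set's top cell the aged-matrix ratio was 1.5002. In the young-matrix pool the positive set then had no UMI and was placed at the floor of 3. Its value of 1.58 came from that floor, so no direction is read from it. Chil3, the chitinase-like gene of monocytes and young neutrophils, was at -3.67 and 1.85, a gap of 5.51, with 6 against 76 and 36 against 10 UMIs; without the top cells it was at -4.33 and 0.58. Ms4a6d was at -1.44 and 1.45, a gap of 2.89, and at -1.48 and 1.60 without the top cells. Sparc, a matrix protein gene of fibroblasts, was at 1.57 and -0.82, a gap of -2.39 (aged minus young). A single cell held 45.2% of its young positive UMIs, and 1 cell held 61.5% of its aged negative UMIs. Without the top cell of every set it was at 0.92 and 0.34. The fibroblast markers summed to 541 against 228 CPM and 405 against 499 CPM in the same sets.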

How the results depend on the processing

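The share of Il23a-positive neutrophils, 5.51% and 6.14%, moved with the rule. It was 2.71% and 3.33% with at least 2 Il23a UMIs, 2.93% and 3.65% at 1000 UMIs a cell, 4.33% and 4.56% with an S100 share of at least 10%, and 6.13% and 6.96% with at least 2%. It was 4.90% and 5.35% without cells over a doublet score of 0.25, 4.47% and 5.21% in cells with 1 hashing tag, 4.48% and 5.19% in cells with the most frequent tag, and 9.08% and 9.04% in the 2136 and 2036 cells with a mouse share of at least 0.98. There the ratio of the shares, 1.11 as reported, turned to 0.995. Over the other alternatives it ran from 1.05 to 1.25.

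The counts of genes past the fold between positive and negative cells were 217 and 63. They were 141 and 105 under TMM, 143 and 102 when scaled by the median of ratios, 66 and 29 at 100 CPM or more, 630 and 234 with no CPM minimum, and 49 and 15 at 2-fold. The higher count was 108 with the 10% S100 gate, and the lower count was 23 without depth matching and 106 with S100a8 and S100a9 out of the totals. Without cells with 3 or more macrophage or dendritic cell UMIs the counts were 239 and 77. Of these, 144 and 41 were among the 217 and 63. Between the pools the 51 and 45 became 11 and 13 at 100 CPM, 578 and 398 with no CPM minimum, and 8 and 7 at 2-fold. With every cell weighted equally 85 were higher, and with cells thinned to 2000 UMIs 6 were lower. The genes changed more than the counts. Of the 51 and 45, 45 and 45 also passed under TMM, and 40 and 31 without each pool's top cell. Only 18 and 14 did without cells over the doublet score, and 18 and 21 at a mouse share of at least 0.98. With at least 2 Il23a UMIs 16 and 13 did, and in thinned cells, with 1368 genes measured, 9 and 0.

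Tnf, Icam1, Gpr84 and Il1a kept their direction and stayed past the fold in every alternative of the comparison of positive with negative cells. Serpinb2 and Ccr2 reversed with the 10% S100 gate, to mean log2 ratios of -0.79 and 0.33. Between pools, leaving out each gene's top cell in each pool turned Ltf to -0.073, Ngp to -0.64 and C1qa to 0.087. Leaving out cells with 3 or more macrophage or dendritic cell UMIs, an alternative chosen after seeing the data, gave -0.041 for Camp, -0.25 for Ltf, -3.74 for Ngp, 0.22 for C1qa and 0.20 for Apoe. Thinning gave 0.47 for Fabp4, 0.30 for C1qa and 0.22 for Apoe. Without cells over the doublet score C1qa was at 1.06, S100a10 at 0.12 and Crip1 at 0.21, and with at least 2 Il23a UMIs Apoe was at 0.59. The cause of these changes was not tested, beyond the share of UMIs in single cells given above.

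No paired analysis was possible because each pool had 1 library and the labels give no replicate numbers. The depth, a median of 3100 and 2716 UMIs in positive cells, limits what a cell without a UMI says.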

Other observations

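Some genes outside the lists, chosen after their values were seen, were at least 2-fold higher in Il23a-positive neutrophils of both pools. Cd69, an early activation receptor that retains leukocytes in tissue, was at 58.5 against 23.8 CPM and 91.2 against 26.4 CPM (2.45-fold and 3.46-fold). Marcksl1, which encodes an actin-linked membrane protein, was at 1050 against 515 CPM and 1347 against 614 CPM and was the most abundant of those named here. Orai2, a subunit of store-operated calcium channels, was at 55.5 against 17.9 CPM and 60.1 against 29.0 CPM, and Prkd3, which encodes a protein kinase D, at 138 against 61.1 CPM and 151 against 67.0 CPM. Mat2a, the enzyme gene for the methyl donor S-adenosylmethionine, was at 25.3 against 10.9 CPM and 36.9 against 15.8 CPM, and Cs, which encodes citrate synthase, at 46.1 against 13.9 CPM and 48.5 against 19.5 CPM.

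Other genes, likewise chosen after their values were seen, were lower in both pools. G6pdx, which encodes glucose-6-phosphate dehydrogenase, was at 20.3 against 38.7 CPM and 17.4 against 52.8 CPM (1.91-fold and 3.03-fold lower), and Tkt, the transketolase gene, at 52.0 against 108 CPM and 47.5 against 89.2 CPM (2.07-fold and 1.88-fold lower). Pglyrp1, a bactericidal granule protein gene, was at 267 against 502 CPM and 277 against 550.0 CPM, and Stfa3, a stefin gene of neutrophils, at 73.3 against 181 CPM and 64.3 against 131 CPM. Wfdc17, an abundant antiprotease-like gene, was at 4836 against 8800 CPM and 4248 against 8596 CPM.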
